A study of Mus musculus with 8 samples.

Results

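Toll-like, Nod-like and RIG-I-like receptors are the proteins by which a cell recognises microbial and misplaced self molecules. The genes described here are these receptors with their nearest adaptors and kinases, found by gene symbol: the Tlr, Nlrc, Nlrp, Nlrx, Naip and Irak families, Nod1, Nod2, Myd88, Ticam1, Ticam2, Tirap, Ly96, Ddx58, Ifih1, Dhx58, Mavs, Aim2, Sting1, Pycard and Casp1. The rule found 59 genes among the 24011 genes tested, each with 1 probe set. Expression was measured with 1-colour Affymetrix arrays in bone marrow of adult C57Bl6 mice, in 4 samples of Lin+ cells and 4 samples of HSC-enriched cells. Lin+ cells carry surface antigens of mature blood lineages and are a mixture of granulocytes, monocytes, lymphocytes and erythroid cells. HSC-enriched cells were the CD48-negative fraction of LSK cells, which lack lineage antigens and carry Sca-1 and Kit. The sample labels add CD105 as a positive antigen and the design text adds CD150, so the second positive antigen is not settled. No treatment or gene alteration is named for either group, and neither sex, an exact age nor pooling of animals is given.

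Toll-like receptors sit at the cell surface, where they meet bacterial lipids and flagellin, or in endosomes, where they meet nucleic acids, and nearly all of them signal through Myd88 and the Irak kinases. Nod-like receptors sense bacterial products in the cytosol, and several of them assemble inflammasomes with Pycard and Casp1, which release interleukin-1. RIG-I-like receptors bind viral RNA and signal through Mavs, and Sting1 relays cytosolic DNA. In bone marrow these genes are best known from neutrophils, monocytes, dendritic cells and B cells, and haematopoietic stem and progenitor cells can also respond to Toll-like receptor ligands.

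The values are log2 levels normalised between arrays, so each is relative to the other RNA of its sample. No detection calls come with them. A guide to background, hereafter the guide, was set at 5.10, under which 95% of 1074 olfactory receptor genes lay. Array medians ran from 5.22 to 5.33. The marker lists were chosen with earlier results of these data known, so they only describe the samples. All 13 measured HSC genes rose in HSC-enriched cells. The 4 arrays of these cells averaged 8.59 to 8.72 over this list, against 5.53 to 5.73 on the Lin+ arrays. Genes of mature cells were unequal among the HSC-enriched arrays, and on replicates 3 and 4 the neutrophil genes averaged about as much as the HSC genes. The 18 neutrophil genes averaged 8.63 and 8.45 on replicates 3 and 4 of the HSC-enriched cells, where replicates 1 and 2 had 6.49 and 6.41 and the Lin+ arrays 11.07 to 11.37. On both of those arrays 16 of the 18 exceeded replicates 1 and 2. The 10 B cell genes averaged 6.27 on HSC-enriched replicate 3 and 4.78 to 4.90 on the other three. Mature-cell markers fell in HSC-enriched cells in 17 of 18 neutrophil, 10 of 10 monocyte and macrophage, 7 of 10 dendritic cell, 10 of 10 B cell, 11 of 11 T and NK cell and 9 of 9 erythroid genes. The monocyte and macrophage list averaged 7.36 to 8.05 on the Lin+ and 4.85 to 5.32 on the HSC-enriched arrays, with 2 of 10 genes at or under the guide on every HSC-enriched array. The dendritic cell list averaged 7.10 to 7.21 and 4.62 to 5.10, with 5 of 10 genes at or under it. Their part in the differences reported here was not tested. The results were also computed without HSC-enriched replicates 3 and 4. Nothing in the labels tells whether replicates are different animals, so the p-values reflect only how these samples vary, possibly for technical reasons. Precision is limited by the 4 arrays of each group.

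HSC-enriched cells had less RNA of most Toll-like receptors and of the inflammasome receptor Nlrp3 than Lin+ cells, and more of the RNA sensor Ifih1, of Nlrc5, of Naip5 and of the kinase Irak1. The value of Naip5 apart from the other Naip genes is uncertain, since these are near-identical copies in places. Of the 59 genes 20 were lower and 6 were higher (limma, Benjamini-Hochberg adjusted p under 0.05), 33.9% and 10.2%. Together 26 passed, where 27.8% of all genes did. Over all genes tested 12.4% were lower and 15.5% higher. By at least 2-fold, 15 of the 59 were lower and 2 higher, where 6.08% and 4.8% of all genes were. The median difference of the 59 genes was -0.17 on the log2 scale, against 0.02 for all genes. The 4 HSC-enriched arrays lay entirely below the 4 Lin+ arrays for 18 of the 59 genes, against 13% of all genes, and entirely above for 6, against 15.9%. In 21 of the 59 genes both group means were at or under the background guide. In such bulk samples a lower share of cells with a transcript and less of it per cell cannot be told apart. Without HSC-enriched replicates 3 and 4 the counts were 18 lower and 5 higher.

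**Figure D1:**
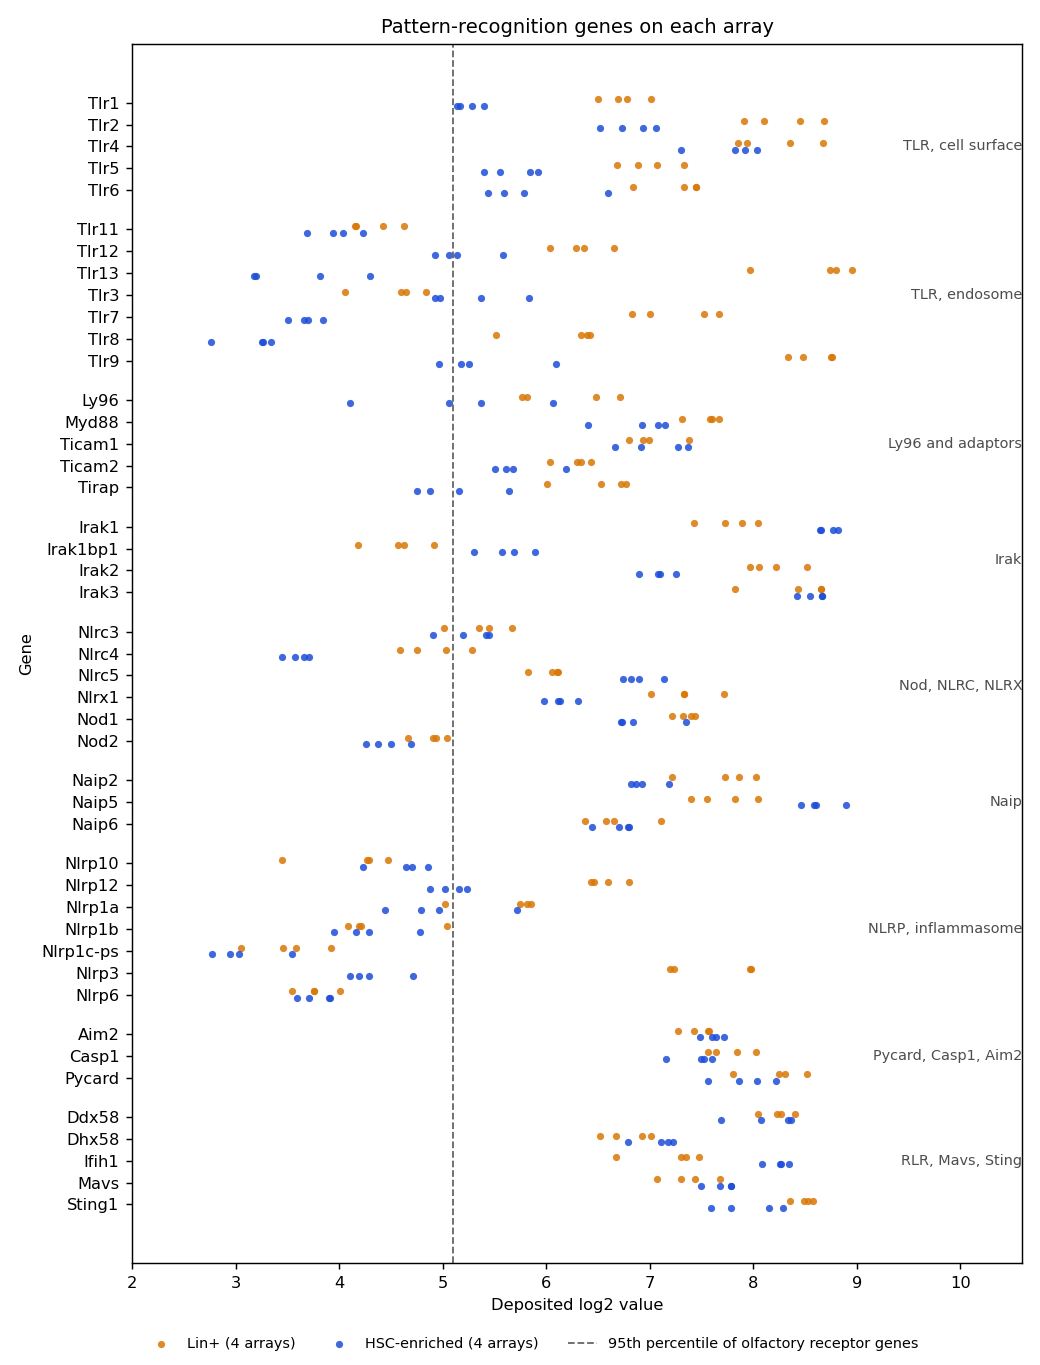
Deposited log2 values (x axis) of 45 receptor, adaptor and kinase genes (y axis, grouped by role) on the 4 Lin+ arrays (orange) and the 4 HSC-enriched arrays (blue), with the background guide of 5.10 as a dashed line. The groups lie far apart for Tlr7, Tlr8, Tlr9, Tlr13 and Nlrp3, whereas they overlap for Tlr4, Irak3, Aim2, Casp1, Pycard, Ddx58 and Dhx58.

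Of the 7 endosomal Toll-like receptor genes 5 were lower and 1 was higher, against 12.4% and 15.5% of all genes. Their median difference was -3.01. Tlr13, a mouse receptor for bacterial ribosomal RNA, stood at 7.97, 8.74, 8.95 and 8.80 on Lin+ arrays 1 to 4 and at 3.18, 3.20, 3.82 and 4.30 on the HSC-enriched arrays. Tlr7, which senses single-stranded RNA, stood at 7.0, 7.67, 6.83 and 7.53 against 3.70, 3.66, 3.5 and 3.85. Tlr8, its neighbour in the genome and closest relative, stood at 5.52, 6.34, 6.40 and 6.42 against 3.35, 2.77, 3.25 and 3.26. In all of them every HSC-enriched array was under the guide and every Lin+ array above it. Tlr13 was 31.8-fold lower (difference -4.99 ± 0.28, SE, adjusted p = 8.9e-07), Tlr7 12-fold (-3.58 ± 0.19, adjusted p = 6.1e-07) and Tlr8 8.06-fold (-3.01 ± 0.21, adjusted p = 3.5e-06). These folds rest on HSC-enriched values near background.

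Tlr9, the receptor for unmethylated CpG DNA, stood at 8.75, 8.34, 8.48 and 8.76 in Lin+ cells and at 4.97, 5.18, 6.09 and 5.26 in HSC-enriched cells, a 9.25-fold difference (-3.21 ± 0.22, adjusted p = 3.3e-06). HSC-enriched replicate 3 was the highest of its group. Every mature-cell marker list, the B cell genes among them, also averaged highest on that array within the group. The part of those cells in the Tlr9 value was not tested. Without HSC-enriched replicates 3 and 4 the difference of Tlr9 was -3.51. Tlr12, a receptor for a parasite protein, was at 6.04, 6.36, 6.29 and 6.65 against 5.06, 4.92, 5.59 and 5.14 and was 2.23-fold lower (-1.16 ± 0.17, adjusted p = 0.00049). HSC-enriched replicates 1 and 2 of Tlr12 were under the guide, so this fold rests on values near background. Tlr11, a close relative of Tlr12, had both means under the guide (4.34 ± 0.23 and 3.97 ± 0.22, SD, n = 4) and did not pass (-0.37, 95% interval -0.70 to -0.04, adjusted p = 0.10).

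Tlr3, which senses double-stranded RNA and is the Toll-like receptor that does not use Myd88, was the exception in direction. Its values were 4.05, 4.64, 4.84 and 4.59 on the Lin+ arrays and 4.92, 4.97, 5.83 and 5.37 on the HSC-enriched arrays. The groups did not overlap, but all Lin+ arrays and HSC-enriched replicates 1 and 2 were under the guide. The 1.67-fold difference (0.74 ± 0.22, adjusted p = 0.031) rested on single arrays. Without Lin+ replicate 1, 2 or 4 the Tlr3 difference was 0.58, 0.78 or 0.76 (adjusted p = 0.077, 0.054 and 0.059). Without HSC-enriched replicate 3 or 4 it was 0.56 or 0.71 (adjusted p = 0.071 and 0.070), and without both 0.42 (adjusted p = 0.22).

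**Figure D2:**
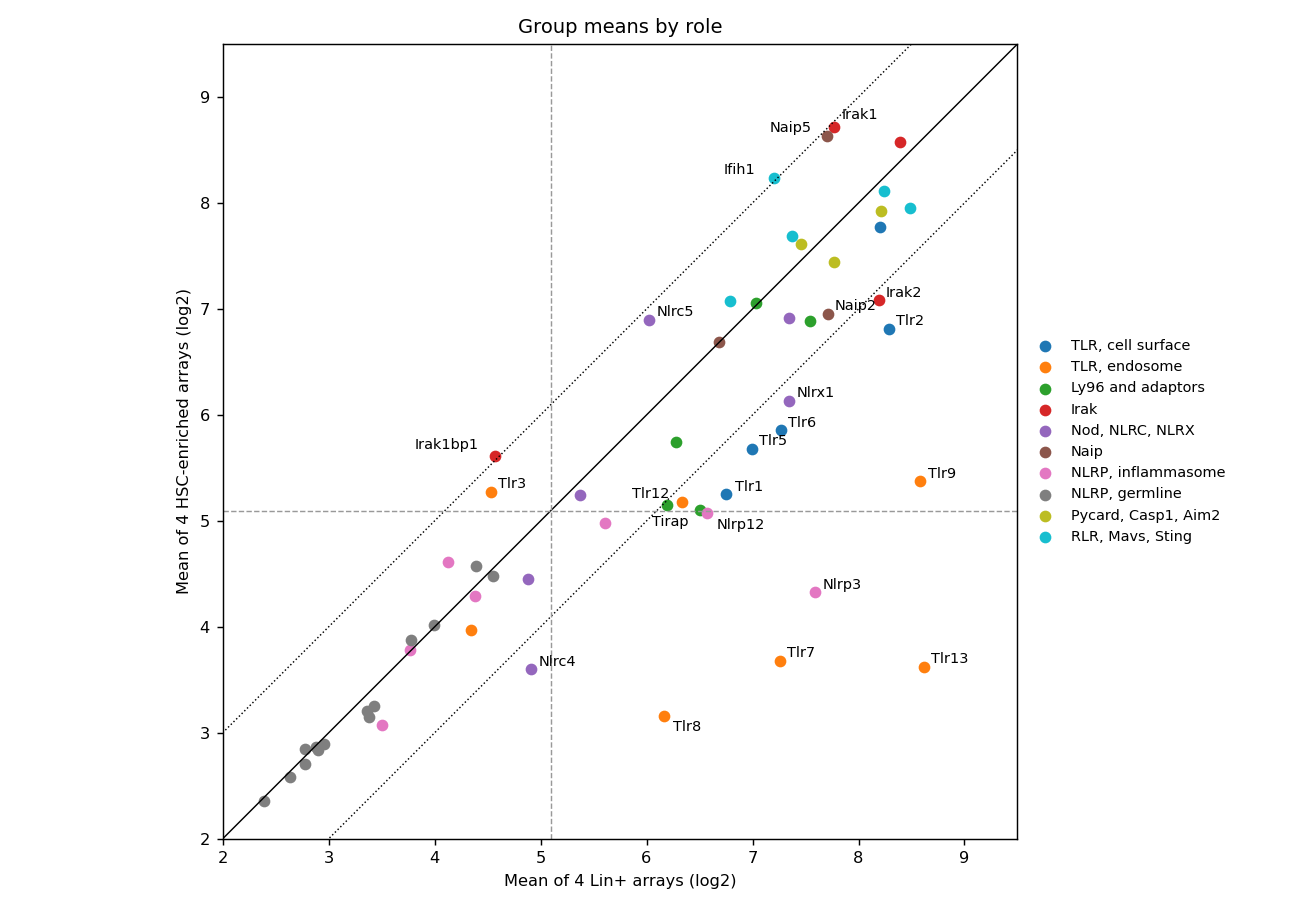
Mean of the 4 HSC-enriched arrays (y axis) against the mean of the 4 Lin+ arrays (x axis), both in log2, for the 59 genes coloured by role. The solid line marks equal means, the dotted lines a 2-fold difference and the dashed lines the background guide of 5.10; Tlr7, Tlr8, Tlr9, Tlr13 and Nlrp3 lie farthest below the solid line, and the 14 germline NLRP genes lie close to it in the lower left.

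Receptors of the cell surface were lower by smaller steps, and Tlr4 did not pass. Of 5 genes 4 were lower, against 12.4% of all genes, with a median difference of -1.41. Tlr2, which recognises bacterial lipopeptides, was at 7.91, 8.45, 8.68 and 8.10 in Lin+ cells and at 6.52, 6.73, 7.07 and 6.94 in HSC-enriched cells. Tlr1, a partner of Tlr2, was at 7.01, 6.78, 6.70 and 6.50 against 5.17, 5.28, 5.40 and 5.14. Tlr6, the alternative partner, was at 6.84, 7.45, 7.44 and 7.33 against 6.59, 5.60, 5.79 and 5.43. All 3 genes of this receptor pair system had groups that did not overlap, and their HSC-enriched values stayed above the guide on every array. The differences were 2.77-fold for Tlr2 (-1.47 ± 0.18, adjusted p = 0.00015), 2.83-fold for Tlr1 (-1.50 ± 0.13, adjusted p = 1.1e-05) and 2.66-fold for Tlr6 (-1.41 ± 0.24, adjusted p = 0.0013). Tlr5, the flagellin receptor, was at 7.07, 6.69, 7.33 and 6.89 against 5.92, 5.40, 5.56 and 5.84, 2.48-fold lower (-1.31 ± 0.17, adjusted p = 0.00017).

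Tlr4, the receptor for bacterial lipopolysaccharide, was at 7.85, 7.94, 8.35 and 8.67 in Lin+ cells and at 7.92, 7.31, 8.03 and 7.83 in HSC-enriched cells. The groups overlapped, and the difference of -0.43 had a 95% interval of -0.90 to 0.04 (adjusted p = 0.18, and 0.099 to 0.41 over 17 alternatives). Ly96, also named MD-2, binds lipopolysaccharide for Tlr4 and was at 5.82, 6.71, 5.77 and 6.48 against 6.07, 5.38, 4.10 and 5.06. Its HSC-enriched arrays were widely spread, and the difference of -1.04 ± 0.37 did not pass (adjusted p = 0.065). Leaving out HSC-enriched replicate 1 let Ly96 pass (-1.35, adjusted p = 0.015), whereas leaving out replicates 3 and 4 gave -0.47 (adjusted p = 0.37). Neither gene was called, and the interval of Ly96, -1.88 to -0.21, lies below 0 before adjustment.

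Tlr1 and Tlr6 are direct neighbours in the genome, as are Tlr7 and Tlr8, and each pair moved the same way. The windows before the annotated starts of Tlr1 and Tlr6 are shown because these neighbours were both lower. They are the 250 bases before a start, taken from RefSeq (GRCm38.p6), both on the minus strand, Tlr1 at chr5:64933559-64933808 and Tlr6 at chr5:64959167-64959416, 1 of 2 starts listed for each gene, picked because it holds the marked match, which the window of the other start lacks. Capitals mark GAGGAAGT in Tlr1, a core of sites for the myeloid and B cell factor PU.1, and in Tlr6 2 overlapping matches to the interferon-stimulated response element, searched as GAAA, any 2 bases and GAAA, which lie on the other strand.
Tlr1: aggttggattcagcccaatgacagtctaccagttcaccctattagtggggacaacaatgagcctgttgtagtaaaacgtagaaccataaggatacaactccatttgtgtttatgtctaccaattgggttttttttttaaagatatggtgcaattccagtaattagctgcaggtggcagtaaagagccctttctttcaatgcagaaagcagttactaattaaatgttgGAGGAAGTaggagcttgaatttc
Tlr6: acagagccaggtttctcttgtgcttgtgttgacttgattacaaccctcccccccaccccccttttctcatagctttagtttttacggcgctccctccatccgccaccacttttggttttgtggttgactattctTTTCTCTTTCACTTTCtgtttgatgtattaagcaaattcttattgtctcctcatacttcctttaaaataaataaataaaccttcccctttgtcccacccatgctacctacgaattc
The match in Tlr1 starts 23 bases before the start. Windows were listed for 46 of the 59 genes and for 27025 genes in all, and a gene was counted when at least 1 of its windows held a match on either strand. GAGGAAGT was in 7 of the 46 (2.79% of all genes, 2.44% of all 32851 windows), and the interferon-stimulated element in 3 (3.46% of genes, 2.98% of windows). Of the 7 genes with GAGGAAGT only Tlr1 was called lower. Aim2, Nlrp1a, Nlrp1b, Nlrp4c, Pycard and Tlr11 held it too and did not pass. Of the 3 genes with the interferon-stimulated element Tlr6 and Myd88 were lower, and Tlr11 did not pass. TTCNNNGAA, the gamma-activated site, was in 7 (8.13% of genes, 7.02% of windows). Of these Myd88, Nlrp12, Nlrx1, Tlr1 and Tlr8 were lower, and Nod1 and Nlrp9b did not pass. In Tlr1 this match lies in the window that is not printed. A form of the kappaB site, searched as GGG, any 2 bases and TTTCC, was in 1, Tlr3 (1.65% of genes, 1.41% of windows). A match is a run of letters and not a site shown to be bound, and a link between matches and calls was not tested.

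Among the adaptors, which link receptors to kinases through TIR domains, Tirap and Myd88 were lower and Ticam1 did not pass. Tirap, which brings Myd88 to Tlr2 and Tlr4, stood at 6.53, 6.77, 6.01 and 6.72 in Lin+ cells and at 5.16, 4.88, 5.64 and 4.75 in HSC-enriched cells, a 2.64-fold difference (-1.40 ± 0.22, adjusted p = 0.00074). HSC-enriched replicates 2 and 4 of Tirap were under the guide, so this fold rests on values near background. Myd88, the adaptor shared by most Toll-like receptors and the interleukin-1 receptors, was 7.54 ± 0.16 against 6.89 ± 0.34 (SD, n = 4), 1.57-fold lower (adjusted p = 0.013). HSC-enriched replicates 3 and 4 were the lowest 2 arrays for Myd88, and without them the difference was -0.43 (adjusted p = 0.065). Ticam1, the adaptor of Tlr3 also known as TRIF, was at 7.03 ± 0.25 and 7.06 ± 0.33, with a 95% interval of the difference from -0.37 to 0.43 (adjusted p = 0.94).

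Ticam2, which couples Tlr4 to Ticam1, was 6.28 ± 0.17 against 5.75 ± 0.31. Its groups overlapped, and its call (-0.53, adjusted p = 0.031) did not survive the loss of any of 6 single arrays. The Ticam2 difference was then -0.52, -0.51 and -0.48 without Lin+ replicates 1, 2 and 4 (adjusted p = 0.062, 0.075 and 0.084). It was -0.48, -0.45 and -0.51 without HSC-enriched replicates 2, 3 and 4 (adjusted p = 0.084, 0.088 and 0.068), and -0.37 with both HSC-enriched replicates 3 and 4 left out (adjusted p = 0.23).

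The Irak kinases, which act just below Myd88, went in both directions. Irak1 was at 7.89, 7.72, 8.04 and 7.43 on the Lin+ arrays and at 8.65, 8.82, 8.77 and 8.65 on the HSC-enriched arrays. Irak2 was at 7.97, 8.22, 8.52 and 8.06 against 7.10, 7.08, 6.90 and 7.25. Irak1 thus rose 1.93-fold (0.95 ± 0.14, adjusted p = 0.00041) and Irak2 fell 2.16-fold (-1.11 ± 0.14, adjusted p = 0.00015), each with no overlap. The difference of Irak1 minus Irak2 within an array ran from -0.63 to -0.08 in Lin+ cells and from 1.40 to 1.87 in HSC-enriched cells, given as a description of a pair picked for its opposite directions. Irak3, also named IRAK-M, an inhibitor of the pathway, was at 8.39 ± 0.39 and 8.57 ± 0.12 (difference 0.18, 95% interval -0.21 to 0.58, adjusted p = 0.54). Irak1bp1, matched by its symbol only and encoding a protein that binds Irak1, was at 4.57, 4.92, 4.63 and 4.18 against 5.57, 5.89, 5.69 and 5.3, 2.06-fold higher (1.04 ± 0.17, adjusted p = 0.0011), with every Lin+ array under the guide. Irak4 was not analysed here.

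Of 7 inflammasome receptors of the NLRP family 2 were lower, against 12.4% of all genes, and the median difference was -0.43. Nlrp3, which senses membrane damage and ion fluxes, stood at 7.19, 7.96, 7.98 and 7.24 in Lin+ cells and at 4.11, 4.19, 4.71 and 4.29 in HSC-enriched cells. Nlrp12, known from neutrophils and monocytes, stood at 6.46, 6.43, 6.80 and 6.60 against 5.23, 4.88, 5.02 and 5.16. Every HSC-enriched value of Nlrp3 was under the guide, and those of Nlrp12 lay around it. Nlrp3 was 9.63-fold lower (-3.27 ± 0.22, adjusted p = 2.3e-06) and Nlrp12 2.83-fold (-1.50 ± 0.12, adjusted p = 8.4e-06), in folds that rest on values near background. The other 5 genes of this role did not pass. Nlrp1a, an inflammasome receptor that has been tied to progenitor cell death in mice, was 5.61 ± 0.39 against 4.98 ± 0.54 (-0.63, adjusted p = 0.12). Without Lin+ replicate 2 or HSC-enriched replicate 3 Nlrp1a passed (-0.83 and -0.88, adjusted p = 0.044 and 0.016), as it did without HSC-enriched replicates 3 and 4 (-0.91, adjusted p = 0.035) and with the replicate number as a block (adjusted p = 0.031). Nlrp1b, Nlrp1c-ps, Nlrp6 and Nlrp10 had both means under the guide.

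The 14 NLRP genes known mainly from oocytes and early embryos, among them Nlrp5 and Nlrp14, describe values at background level. They give no contrast for receptors above the guide. Nlrp4d and Nlrp5-ps are annotated as pseudogenes. None of 112 array values of these genes was above the guide, with a range of 2.21 to 4.98, and 0 of 14 passed the test by limma, with 0 at an unadjusted p under 0.05. Their differences ran from -0.23 to 0.19. Nlrp4d passed once, without Lin+ replicate 4 (-0.36, adjusted p = 0.044). The highest levels were those of Nlrp9a (4.55 ± 0.07 against 4.48 ± 0.20), Nlrp5-ps (4.39 ± 0.33 against 4.58 ± 0.29) and Nlrp4g (4.00 ± 0.15 against 4.02 ± 0.08). Nlrp5-ps had the largest rise of the 14, 0.19.

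Of the inflammasome core, none of 3 genes passed the test by limma (1 was lower at an unadjusted p under 0.05). Over all genes 27.8% passed. Pycard, the adaptor ASC, was 8.22 ± 0.30 in Lin+ and 7.92 ± 0.28 in HSC-enriched cells (-0.30, 95% interval -0.70 to 0.10, adjusted p = 0.29). Casp1, the protease that cuts pro-interleukin-1, was 7.77 ± 0.21 and 7.45 ± 0.20 (-0.32, 95% interval -0.63 to -0.01, adjusted p = 0.12). Aim2, a sensor of cytosolic DNA, was 7.46 ± 0.14 and 7.61 ± 0.09 (0.16, 95% interval -0.08 to 0.39, adjusted p = 0.35). All 24 values of these 3 genes were above the guide, and their groups overlapped. None of the 3 passed under any of 17 alternatives, and the difference between their changes and that of Nlrp3 was not tested.

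**Figure D3:**
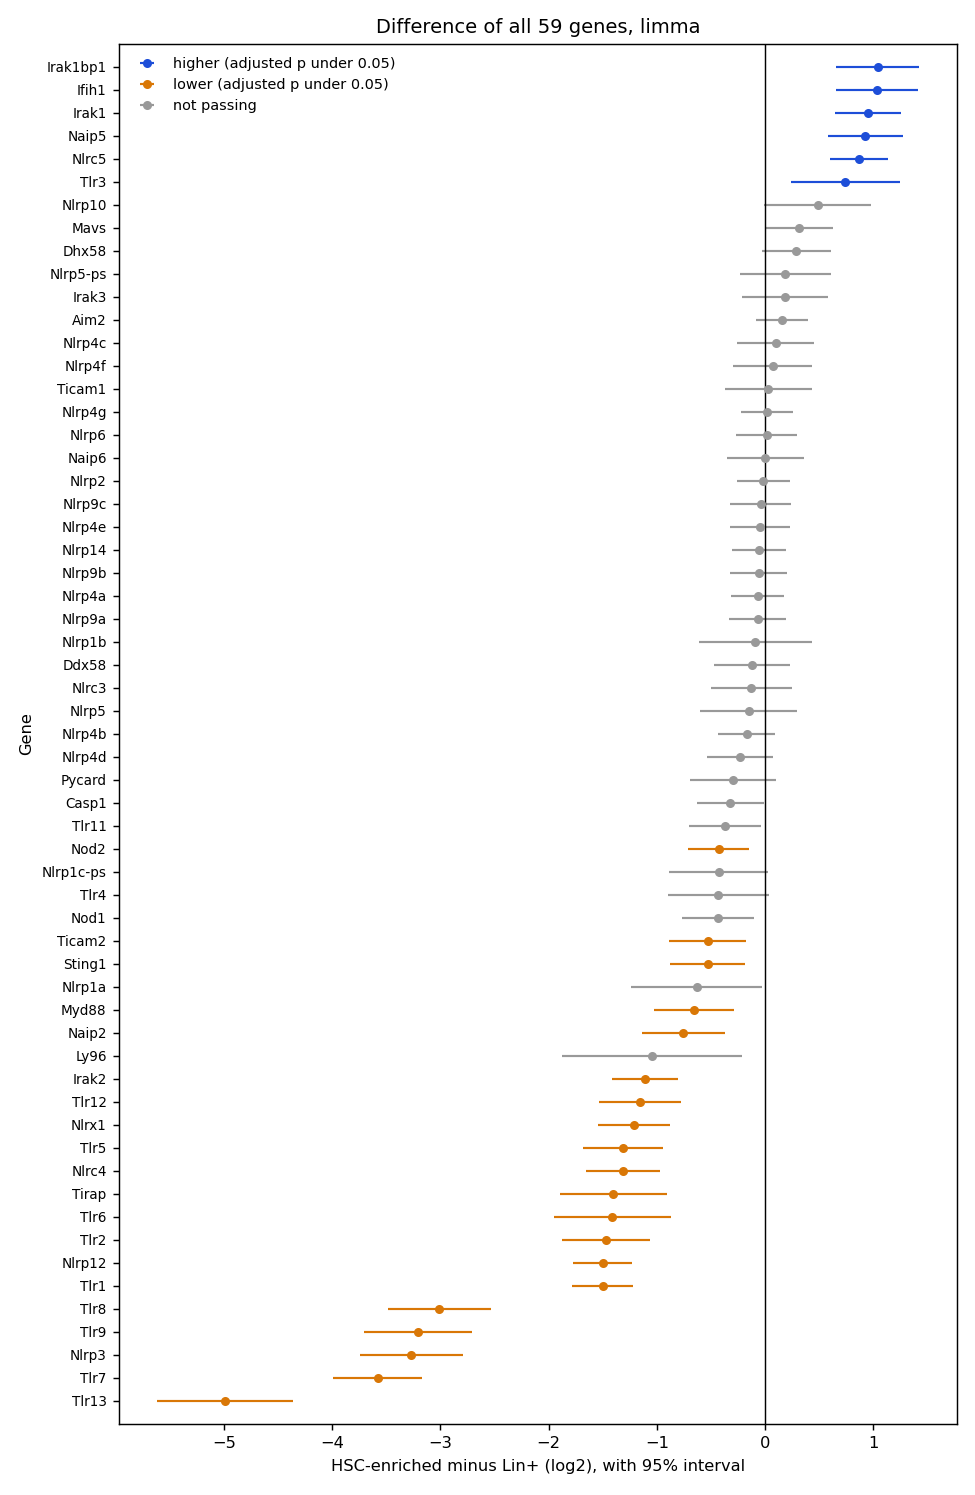
Difference between HSC-enriched and Lin+ means (x axis, log2) with its unadjusted 95% interval from limma for all 59 genes (y axis, sorted by the difference), coloured by call. The 5 largest falls, from -3.01 (Tlr8) to -4.99 (Tlr13), stand clear of the next, Tlr1 at -1.50, and the rises reach 1.04.

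The Naip genes encode the sensors that bind flagellin and bacterial secretion proteins and then recruit Nlrc4. They lie close together in the genome, and 3 were measured. Naip5, the flagellin sensor, was at 7.40, 7.83, 7.56 and 8.04 in Lin+ cells and at 8.89, 8.46, 8.60 and 8.58 in HSC-enriched cells. Naip2, which binds the rod protein of secretion systems, was at 7.21, 7.73, 8.03 and 7.86 against 7.19, 6.87, 6.82 and 6.93. Naip5 rose 1.90-fold (0.93 ± 0.16, adjusted p = 0.0011) and Naip2 fell 1.69-fold (-0.76 ± 0.17, adjusted p = 0.0072), though without HSC-enriched replicates 3 and 4 Naip2 did not pass (-0.68, adjusted p = 0.065). Naip6, a further flagellin sensor, was at 6.68 ± 0.31 and 6.68 ± 0.17 (difference 0.00, 95% interval -0.35 to 0.36, adjusted p = 0.99). Naip5 minus Naip2 within an array ran from -0.47 to 0.19 in Lin+ cells and from 1.60 to 1.78 in HSC-enriched cells. This pair was picked for its opposite directions, so the ranges are a description and not a further test. The Naip genes are near-identical copies in places, and how probes were assigned to them is not given in the sources used here, so their separate values are uncertain.

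The windows before the Naip starts are shown because these neighbouring copies differed in direction. They are the 250 bases before the annotated start from RefSeq (GRCm38.p6), all on the minus strand, Naip2 at chr13:100202123-100202372, Naip5 at chr13:100247337-100247586 and Naip6 at chr13:100316617-100316866. Capitals mark the runs of at least 10 bases that Naip2 and Naip5 share in alignment.
Naip2: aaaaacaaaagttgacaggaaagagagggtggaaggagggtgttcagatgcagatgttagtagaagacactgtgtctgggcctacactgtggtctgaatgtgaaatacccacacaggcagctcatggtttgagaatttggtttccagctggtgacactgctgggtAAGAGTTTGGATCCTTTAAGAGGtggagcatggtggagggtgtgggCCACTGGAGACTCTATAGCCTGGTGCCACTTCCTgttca
Naip5: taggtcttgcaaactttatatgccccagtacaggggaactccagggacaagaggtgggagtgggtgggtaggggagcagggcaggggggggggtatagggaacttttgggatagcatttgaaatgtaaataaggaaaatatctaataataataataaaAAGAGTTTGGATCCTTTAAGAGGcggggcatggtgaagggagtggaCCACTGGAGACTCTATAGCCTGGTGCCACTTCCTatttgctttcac
Naip6: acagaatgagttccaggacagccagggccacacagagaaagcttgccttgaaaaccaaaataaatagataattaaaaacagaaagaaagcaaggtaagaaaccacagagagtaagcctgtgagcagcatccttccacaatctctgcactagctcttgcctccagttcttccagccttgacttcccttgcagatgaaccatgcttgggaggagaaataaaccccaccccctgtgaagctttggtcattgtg
Naip2 and Naip5 share 2 such runs, of 23 and 34 bases, and were identical at 66.7% of 225 aligned bases. Neither run is in the Naip6 window, which was identical to that of Naip2 at 54.9% of 193 aligned bases and to that of Naip5 at 54.3% of 175. Aligned in the same way, windows of Tlr13 and Tlr9, which lie on different chromosomes, were identical at 54.4% of 215 bases. The printed windows of Tlr1 and Tlr6 were at 50.7% of 227. Beyond the shared part near the start, the Naip2 and Naip5 windows differ. None of the 3 windows holds any of the 4 motifs searched.

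Nod1, Nod2 and the NLRC genes differed gene by gene. Nlrc5, which drives transcription of MHC class I genes, was at 6.12, 6.06, 5.83 and 6.11 on the Lin+ arrays and at 7.14, 6.74, 6.89 and 6.82 on the HSC-enriched arrays, 1.83-fold higher (0.87 ± 0.12, adjusted p = 0.00031). Nlrx1, a mitochondrial member that dampens signalling, was at 7.01, 7.33, 7.72 and 7.34 against 5.98, 6.14, 6.11 and 6.31, 2.32-fold lower (-1.21 ± 0.15, adjusted p = 0.00015). Nlrc4, the partner of the Naip proteins, was at 4.75, 5.04, 4.58 and 5.28 against 3.57, 3.66, 3.71 and 3.45. It was 2.49-fold lower (-1.31 ± 0.15, adjusted p = 0.00010), but 1 of its 8 values was above the guide, so that its difference lies within the range of background values. Both kinds of call, up and down, thus occurred in this small family without overlap between groups.

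Nod1, which senses a fragment of bacterial cell walls, was 7.35 ± 0.10 against 6.91 ± 0.30 and did not pass (-0.43, adjusted p = 0.053). HSC-enriched replicate 4 was the highest array of its group for Nod1, and without it the difference was -0.58 (adjusted p = 0.0029). Without HSC-enriched replicates 3 and 4 it was -0.56 (adjusted p = 0.014). Nod2, the receptor for muramyl dipeptide, was under the guide on all 8 arrays, and its call (-0.43, adjusted p = 0.028) did not survive the loss of any of 6 single arrays. Those were Lin+ replicates 1, 2 and 4 (-0.42, -0.41 and -0.38, adjusted p = 0.058, 0.070 and 0.079) and HSC-enriched replicates 2, 3 and 4 (-0.44, -0.40 and -0.36, adjusted p = 0.054, 0.075 and 0.074). Without HSC-enriched replicates 3 and 4 the Nod2 difference was -0.29 (adjusted p = 0.24), and with the replicate number as a block its adjusted p was 0.055. Nlrc3, an inhibitory member expressed in lymphocytes, was at 5.37 ± 0.27 and 5.24 ± 0.25 (adjusted p = 0.67).

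Of the 5 genes of the RIG-I-like receptors, Mavs and Sting1, 1 was higher and 1 lower, against 15.5% and 12.4% of all genes. Ifih1, also named MDA5, which binds long double-stranded RNA, was at 6.67, 7.30, 7.48 and 7.35 in Lin+ cells and at 8.26, 8.27, 8.34 and 8.09 in HSC-enriched cells. The groups did not overlap, and the 2.05-fold rise (1.04 ± 0.17, adjusted p = 0.00094) held in every alternative run (adjusted p = 0.00036 to 0.0086). Ddx58, which encodes RIG-I, the sensor of RNA ends, was at 8.24 ± 0.15 and 8.11 ± 0.31 (-0.12, 95% interval -0.47 to 0.23, adjusted p = 0.66). Dhx58, the third member of the family, known as LGP2, was 6.79 ± 0.23 and 7.08 ± 0.20 (0.29, 95% interval -0.03 to 0.61, adjusted p = 0.18). Ifih1 minus Ddx58 within an array ran from -1.73 to -0.75 in Lin+ cells and from -0.10 to 0.40 in HSC-enriched cells. These ranges describe a picked pair and are not a further test. Mavs, the mitochondrial adaptor they share, was 7.37 ± 0.26 and 7.69 ± 0.14 (0.31, adjusted p = 0.14) and passed without Lin+ replicate 1 (0.42, adjusted p = 0.042).

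Sting1, the adaptor for cytosolic DNA, was lower by a small amount. It stood at 8.58, 8.35, 8.49 and 8.53 in Lin+ cells and at 8.15, 7.79, 8.29 and 7.59 in HSC-enriched cells, a 1.44-fold difference (-0.53 ± 0.15, adjusted p = 0.027). The groups did not overlap, but the Sting1 call was lost without Lin+ replicate 1, 3 or 4 (-0.50, -0.53 and -0.52, adjusted p = 0.063, 0.058 and 0.062) and without HSC-enriched replicate 2 or 4 (-0.47 and -0.41, adjusted p = 0.077 and 0.059). It passed without HSC-enriched replicates 3 and 4 (-0.52, adjusted p = 0.037).

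The HSC-enriched arrays were compared among themselves, because the neutrophil genes were higher on replicates 3 and 4. Tlr2, Tlr3, Tlr9, Tlr12, Tlr13 and Nlrp3 were higher on both of these arrays than on replicates 1 and 2, as were 5 further genes, 4 of which had both group means under the guide. In all this was so for 11 of the 59 genes (18.6%), about the share of all genes (18.8%). Lower on both were 4 of the 59 (Ly96, Myd88, Nod2 and Nlrp9b), 6.78% against 19.6% of all genes. The part of neutrophil RNA in these values was not tested. Without replicates 3 and 4 the differences of Tlr2, Tlr9, Tlr12, Tlr13 and Nlrp3 were -1.66, -3.51, -1.34, -5.42 and -3.44, larger falls by construction, since the 2 higher arrays of each were removed. The rises in Irak1 (0.96), Ifih1 (1.06), Nlrc5 (0.91) and Naip5 (0.97) were also as large without them, and each passed.

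**Figure D4:**
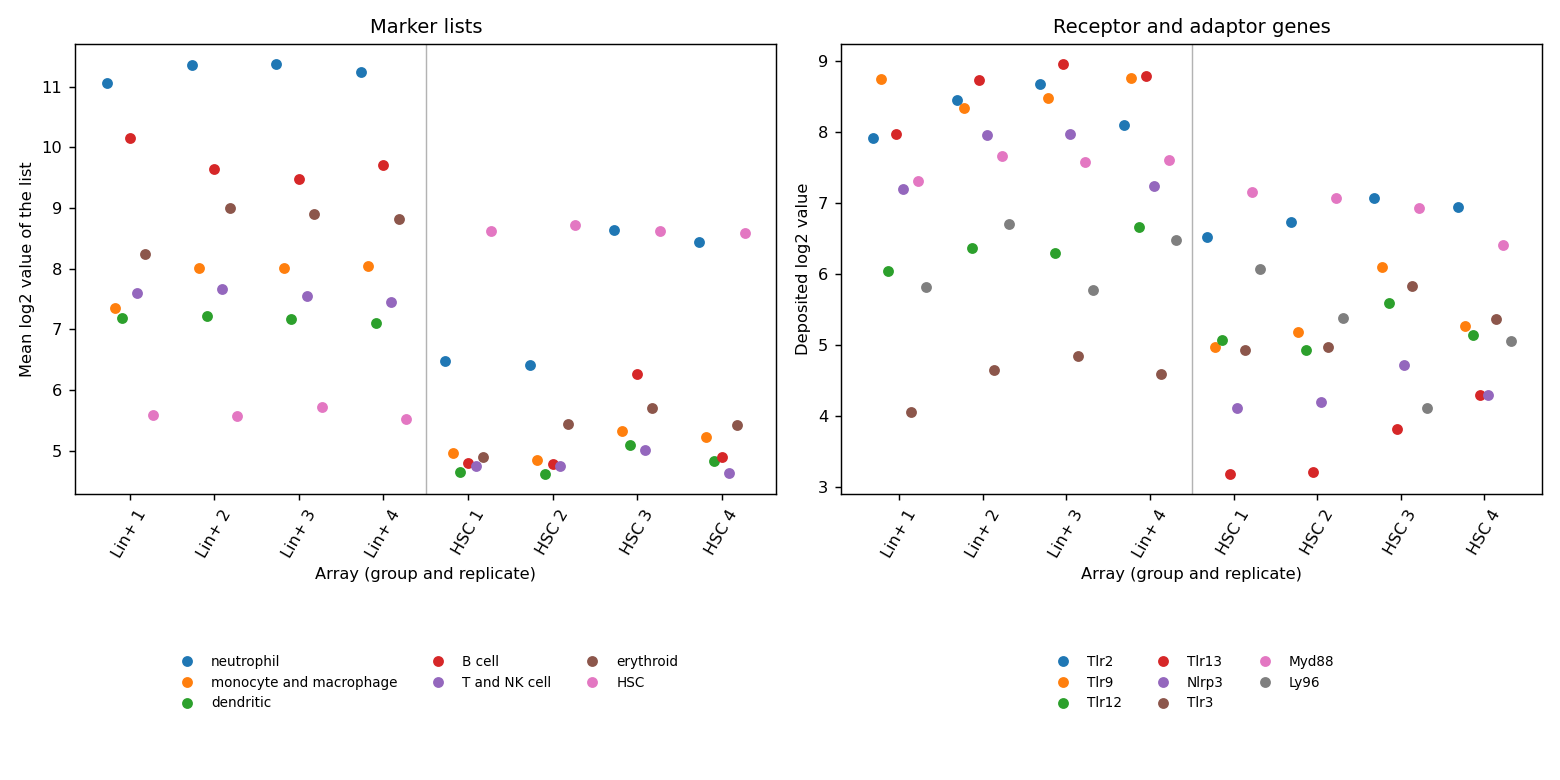
Left, mean log2 value of 7 marker lists (y axis) on each of the 8 arrays (x axis); right, deposited log2 values of 8 receptor and adaptor genes on the same arrays, with points set side by side within an array. The neutrophil list reads 6.49 and 6.41 on replicates 1 and 2 of the HSC-enriched cells and 8.63 and 8.45 on replicates 3 and 4. Tlr13 is at 3.18 and 3.20 and at 3.82 and 4.30.

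Other genes of the pathways were taken from 5 lists that hold no gene described so far. Of 92 measured, 31 were lower and 10 higher, where 12.4% and 15.5% of all genes were, with a median difference of -0.18. The mature-cell markers fell beside them as given above. Of 20 accessory and trafficking genes 8 were lower and 3 higher. Ly86 (9.55 ± 0.06 against 4.70 ± 0.46) and Cd180 (9.69 ± 0.18 against 6.41 ± 0.49), which form a receptor complex related to Tlr4 and Ly96, fell 28.9-fold and 9.75-fold, with the HSC-enriched mean of Ly86 under the guide. Cd36, a scavenger receptor that assists Tlr2, fell 9.28-fold. Sigirr, an inhibitory relative of the interleukin-1 receptors, rose 2.36-fold, from 6.27 ± 0.22 to 7.51 ± 0.23 (adjusted p = 0.00012). Rnf125, a ubiquitin ligase that acts on RIG-I, rose 2.90-fold (adjusted p = 0.00071), and Erbin, which binds Nod2, rose 1.47-fold. Hsp90b1, the chaperone of Toll-like receptors (-0.09, adjusted p = 0.60), and Trim25, a ubiquitin ligase for RIG-I (-0.05, adjusted p = 0.80), did not pass. Picked after its values were seen, Unc93b1, which carries receptors to the endosome, was 10.25 ± 0.09 against 8.15 ± 0.16, 4.30-fold lower (adjusted p = 6.6e-07). Cd14 and Lbp, picked in the same way, were 6.88-fold and 1.66-fold lower (adjusted p = 0.00079 and 0.0038).

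Of 22 kinases, ubiquitin ligases and scaffolds of the signalling cascade 3 were lower and 0 higher by limma, against 12.4% and 15.5% of all genes. Their median difference was -0.10. At an unadjusted p under 0.05, 5 were lower and 0 higher. Without HSC-enriched replicates 3 and 4, 3 were lower and 0 higher. Birc3, a ubiquitin ligase, was 9.36 ± 0.03 against 8.28 ± 0.32 (2.10-fold lower, adjusted p = 0.00035), and Tank, a scaffold of the kinase Tbk1, was 1.74-fold lower (adjusted p = 0.0017). Btk, a kinase of B cells and myeloid cells, was 1.27-fold lower (adjusted p = 0.040). Btk lost its call without Lin+ replicate 1, 2 or 4 (-0.30, -0.37 and -0.33, adjusted p = 0.096, 0.061 and 0.091) or HSC-enriched replicate 1, 2 or 3 (-0.30, -0.31 and -0.38, adjusted p = 0.10, 0.11 and 0.056), and with the replicate number as a block (adjusted p = 0.093). Tab2 (-0.10, 95% interval -0.32 to 0.12) and Peli1 (-0.10, 95% interval -0.42 to 0.23) did not pass.

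Of 13 transcription factor genes of these pathways 5 were lower and 1 higher, against 12.4% and 15.5% of all genes. Irf8, a factor of monocytes, dendritic cells and B cells, fell 12.6-fold (9.10 ± 0.15 against 5.44 ± 0.42, adjusted p = 6.2e-07), Irf5 2.54-fold and Nfkbie, an NF-kB inhibitor gene, 1.91-fold. Rela, the main activating subunit of NF-kB, rose 1.41-fold (8.90 ± 0.18 to 9.39 ± 0.17, adjusted p = 0.015), and without HSC-enriched replicates 3 and 4 Rela did not pass (0.51, adjusted p = 0.070). Nfkbia (-0.18) and Rel (-0.26) did not pass.

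Of 17 other cytosolic sensors and inflammasome effectors 9 were lower and 4 higher, against 12.4% and 15.5% of all genes. Il1b, the interleukin-1 beta gene, was 10.55 ± 0.51 against 5.66 ± 0.72, 29.5-fold lower (adjusted p = 3.9e-06), and Il1rn, its antagonist, was 11.6-fold lower. Il18, the other cytokine cut by Casp1, was 5.76 ± 0.69 against 7.32 ± 0.32, 2.95-fold higher (adjusted p = 0.0031). Casp4, the mouse caspase-11 gene, was 1.47-fold higher (adjusted p = 0.013), while Casp8 (0.19) and Gsdmd (-0.15), the pore-forming substrate of Casp1, did not pass. Ifi204 was 20.9-fold lower and Mndal 1.55-fold higher, 2 members of a gene family with near-identical copies whose separate values are uncertain. Mndal lost its call without Lin+ replicate 3 or 4 or HSC-enriched replicate 3 or 4 (0.51, 0.60, 0.57 and 0.57, adjusted p = 0.051, 0.051, 0.056 and 0.051), with both of the latter left out (0.45, adjusted p = 0.18) and with the replicate number as a block (adjusted p = 0.062).

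Of 20 inducible inflammatory genes 6 were lower and 2 higher, against 12.4% and 15.5% of all genes. The chemokine genes Ccl5, Ccl3 and Ccl2 fell 14.0-fold, 5.19-fold and 4.85-fold. Socs3, a feedback inhibitor of cytokine signalling, rose 1.95-fold (6.47 ± 0.49 to 7.43 ± 0.16, adjusted p = 0.0065), and without HSC-enriched replicates 3 and 4 Socs3 did not pass (0.87, adjusted p = 0.059). Icam1, an adhesion molecule, rose 1.56-fold (adjusted p = 0.0066). Ccl4 (-0.72) and Ptgs2 (-0.51) did not pass, but without Lin+ replicate 4 they did (-1.06 and -0.72, adjusted p = 0.030 and 0.043), and Ptgs2 did with the replicate number as a block (adjusted p = 0.015).

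**Figure D5:**
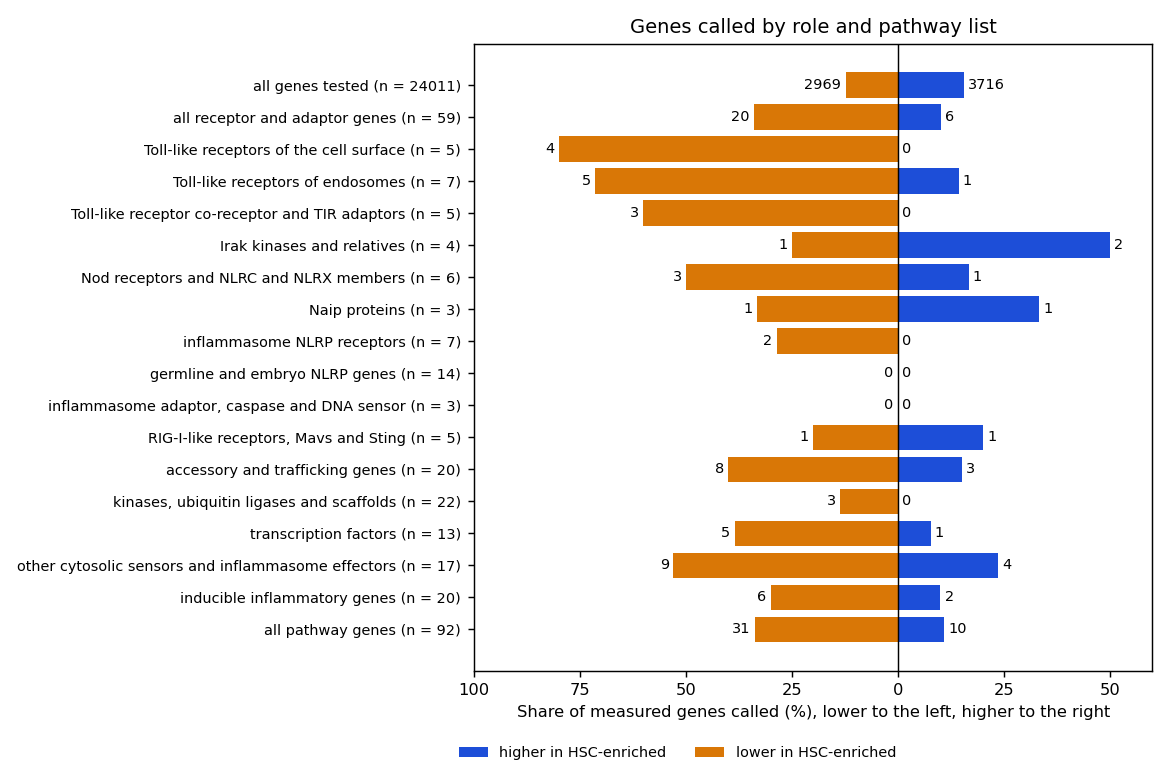
Share of measured genes called lower (left, orange) or higher (right, blue) in HSC-enriched cells (x axis, percent), with the number called at each bar, for all genes, for the 59 genes and their roles, and for the 5 pathway lists (y axis). The bars of all genes stand at 12.4% lower and 15.5% higher, and those of the 59 genes at 33.9% and 10.2%.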

How the data were processed

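Per the labels' protocols, RNA of sorted bone marrow cells was amplified (Ovation Pico), tagged with biotin and read on Affymetrix MouseGene ST arrays, of which 2 versions are named. The authors deposited a table of log2 levels (24973 probe sets, 8 arrays), and the submitters' processing notes name RMA and Partek, with no version. The array version of each sample, the genome build and the probe set definition have no statement in the labels or headers (not given in the sources used here).

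Of the probe sets 24015 had 1 symbol in the platform's name table, 0 had several and 958 had none. Symbols were updated through RefSeq (GRCm38.p6) for 23922, and the brightest probe set of a symbol was kept (24011 genes). Differences are HSC-enriched minus Lin+ means, fitted on all genes with limma 3.58.1 (R 4.3.3), with Benjamini-Hochberg adjustment over all genes, a threshold of 0.05 and no filter. The fit was tested on simulated data. Intervals are limma's at 95%, unadjusted. Errors after ± are SDs over 4 arrays beside a level and limma's SEs beside a difference.

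Members, roles, pathway and marker lists were chosen with earlier results of these data known. By the rule for named genes, members called at 2-fold or more are given on every array, and in each role up to 3 further called and 3 uncalled members by level. In each pathway list up to 3 rises, 3 falls and 2 uncalled genes are named. Alternatives were centring, quantile normalization, 2 filters on low values, the mean of probe sets, a trend with robust estimates, weights per array, a block on the replicate number and each array left out. An alternative without HSC-enriched replicates 3 and 4 was chosen after seeing the data. Of 99 listed pathway genes outside the members 92 were measured and the rest not analysed here. Figures were drawn with matplotlib 3.10.9.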

Additional observations from a re-analysis of the deposited data

Results flagged for a closer look

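Among 118 sets of 4 arrays (59 genes in 2 groups) 4 held an array far from the other three, where chance flags about 1 in 20. Tlr8 was at 5.52 on Lin+ replicate 1, against 6.34 to 6.42 on the other Lin+ arrays, and at 2.77 on HSC-enriched replicate 2, against 3.25 to 3.35. Nlrp1a was at 5.02 on Lin+ replicate 2, against 5.75 to 5.85, and passed the test without that array. Nlrp1b was at 5.04 on Lin+ replicate 1, against 4.08 to 4.21, all of them under the background guide.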

How the results depend on the processing

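Of the 26 genes that passed, 20 kept their call in each of the 17 alternatives in which they were tested; Tlr3, Ticam2, Nod2, Sting1, Myd88 and Naip2 lost it in at least 1. Of the 33 that did not pass, Ly96, Nod1, Nlrp1a, Nlrp4d and Mavs passed in at least 1. No call changed direction. Lower genes numbered 17 to 22 of the 59 and higher ones 5 to 6, and leaving out single arrays gave 17 to 21 and 5 to 6. Among all genes tested in each run, 2392 to 3048 were lower and 3152 to 4044 higher. Leaving out single arrays gave 2688 to 2933 and 3233 to 3640 of all genes. Pathway genes numbered 29 to 33 lower and 8 to 11 higher. Filters at the 40th percentile and at the background guide kept 38 and 37 of the 59 genes. Beyond the calls given above, Ly96 passed with both filters (adjusted p = 0.041 and 0.039), array weights (0.041) and the replicate block (0.043), Nod1 with centring (0.043), both filters (0.040 and 0.037) and array weights (0.023), and Nod2 was lost with quantile normalization (0.053).

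The labels do not tell whether arrays with the same replicate number belong together. Their deviations from the group means correlated at -0.15, 0.06, 0.03 and -0.10 for numbers 1 to 4 over all genes. Such values cannot show whether the samples shared animals or a sort. With the replicate block 21 of the 59 genes were lower and 6 higher. No detection calls come with the arrays, so folds against means near 5.10 are uncertain.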
